A study of Drosophila melanogaster with 12 samples.

Results

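The sugar response of larvae that lack Mlx was described by comparing mlx1 larvae on a high-sugar diet (HSD) with mlx1 larvae on a low-sugar diet (LSD), across all genes measured. The comparison rests on 6 of the 12 libraries of the series, 3 per diet, and they were taken by their labels alone. The animals were whole third-instar Drosophila melanogaster of genotype Mlx -/-, a null mutant. The control libraries of the series, 3 on each diet, came from wild-type larvae raised in the same way. They were fitted together with the mlx1 libraries, so they also entered the filter, scaling and estimate of spread behind each mlx1 call. Their levels and changes are given where mlx1 larvae were set against controls. Eggs were laid over 3 h, larvae were put on 10% yeast 24 h later, and after another 24 h they were moved again. HSD larvae went to 10% yeast with 20% sucrose and were collected at 8 h. LSD larvae went to fresh 10% yeast and were collected at 1.5 h, the time at which non-feeding animals were taken out. Diet and hours since the move therefore cannot be told apart, nor can a tag in the column names, L3 in all HSD and L2 in all LSD libraries, whose meaning is not stated. Each genotype was a single line. Whether replicate libraries stem from separate cultures is not stated, so the p-values reflect only how these libraries spread, which may be technical.

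Mlx is a basic helix-loop-helix protein that pairs with Mondo, the fly counterpart of mammalian ChREBP. The pair senses sugar through phosphorylated glucose and turns on genes of glycolysis, the pentose phosphate pathway and fatty acid synthesis, directly and through downstream factors such as sugarbabe. Larvae without a working pair do poorly on sugar. The comparison asks which diet-dependent transcripts are still seen when the partner is missing. A second layer of nutrient control, the insulin and TOR pathways, sets ribosome production, cell growth and autophagy in the same animals.

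The 6 libraries held 9053479 to 12507970 counts, and Pearson's r of log2 CPM between them, across genes that are not independent replicates, was 0.932 to 0.983 within a diet and 0.911 to 0.95 between diets. Levels below are CPM, each library's counts scaled to a common total, after TMM normalization, given for libraries A, B and C in that order, and the error after a log2 fold change is its standard error. Mlx itself, which the table lists as bigmax (3R:23113088-23114248), had 1.08, 0.823 and 0.771 CPM in HSD and 0.896, 0.691 and 0.494 CPM in LSD mlx1 larvae, against 26.2 to 34.1 CPM in the 6 control libraries. Genes for cuticle proteins, whose levels move with moulting, differed between libraries of 1 group. Their summed level was 18500, 15200 and 20900 CPM in HSD mlx1 libraries and 17700, 46600 and 25900 CPM in LSD mlx1 libraries, of which B was the highest. Positions are those of the deposited table, and its genome build is not given in the sources used here. Gene names are current symbols, with the name in the table in parentheses where it differs. All larvae were whole animals, so fewer cells of a type and less RNA per cell cannot be told apart.

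In mlx1 larvae 2941 of 10045 tested genes (29.3%) differed between the diets by edgeR's quasi-likelihood test at a Benjamini-Hochberg adjusted p under 0.05, which is the call used throughout. Of these, 1361 (13.5% of the genes tested) were higher and 1580 (15.7%) lower on HSD. Both shares are the background for the list counts below. The median log2 fold change over all genes tested was -0.01. In 44.7% of the genes the HSD and LSD libraries did not overlap. Rises were fewer but larger. At a log2 change of at least 1 there were 422 rises (4.2%) and 450 falls (4.48%), at 2 or more there were 82 rises and 28 falls, and at 3 or more 32 rises and 5 falls. Of the 1361 genes that rose, 540 were also called higher and 36 called lower in control larvae. Of the 1580 that fell, 683 were also called lower and 15 called higher in controls.

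The difference between the mlx1 and the control response was tested as an interaction and was called for 692 genes (6.89%), with the mlx1 response above that of controls in 333 (3.32%) and below it in 359 (3.57%). Among the genes that rose in mlx1 larvae, 1097 had no called difference, 170 rose beyond a control response that was itself not called, 32 rose in both genotypes but more in mlx1, 26 rose more in controls, and 36 rose in mlx1 while falling in controls. Among those that fell, the corresponding counts were 1358, 143, 55, 9 and 15. A further 206 genes with a called difference did not change in mlx1 larvae by the call. The count of 692 depended on single libraries. It was 271 without HSD mlx1 library A, 312 without HSD mlx1 library C, 335 without LSD mlx1 library C, 281 without control HSD library B and 290 without control LSD library B.

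**Figure D1:**
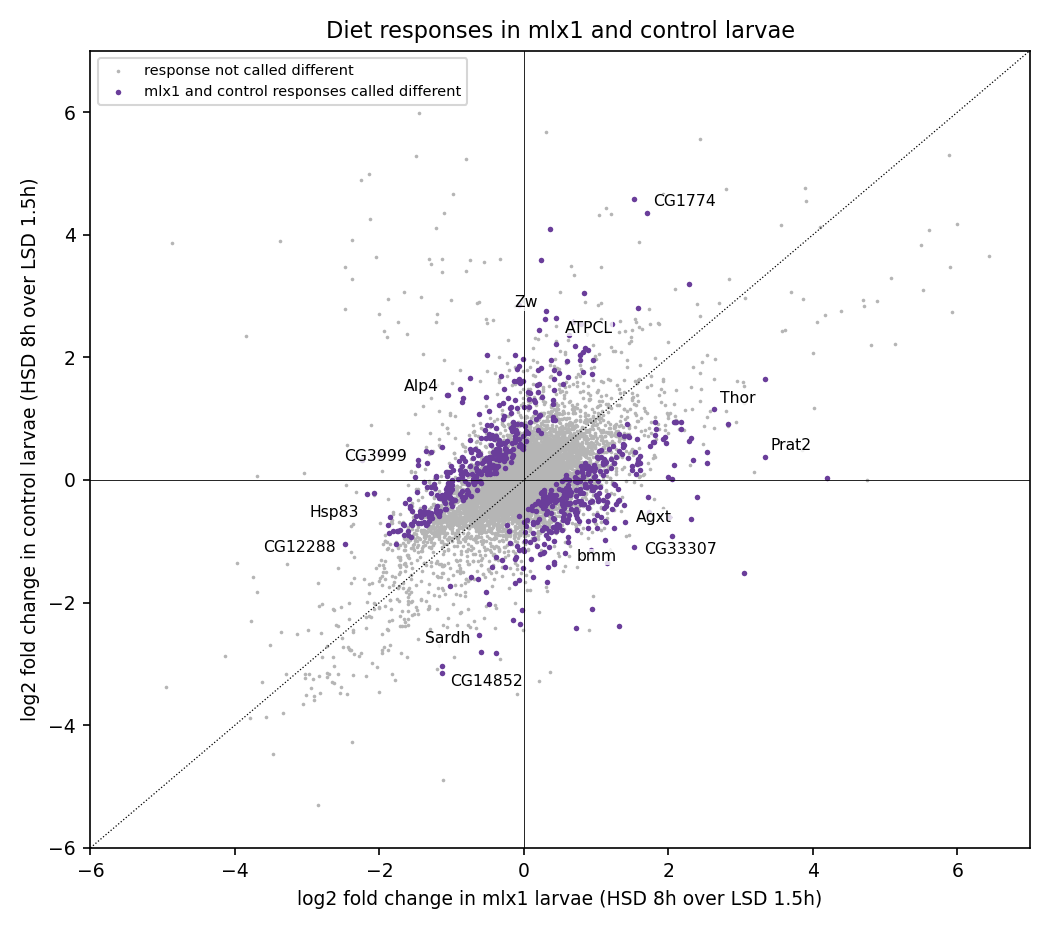
Each point is 1 of the genes tested, with its log2 fold change between HSD at 8 h and LSD at 1.5 h in mlx1 larvae on the horizontal axis and in control larvae on the vertical axis. Purple points are the 692 genes whose responses were called different, and 1 gene lies outside the axes. Points on the dotted line changed equally in both genotypes; Prat2 and Thor lie below it, and Zw, ATPCL and CG1774 above it.

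Genes that build ribosomes were lower on HSD almost throughout. Of 28 tested genes of the nucleolus, where ribosomal RNA is made and ribosomes are assembled, 26 fell and 1 rose, where 15.7% of all genes tested fell and 13.5% rose, and the median log2 change was -1.32, against -0.01 over all genes. Mybbp1A (l(1)1Bi, X:523806-527666), a nucleolar protein, had 34.9, 37.1 and 36.2 CPM in HSD mlx1 larvae, against 147, 118 and 134 CPM in LSD mlx1 larvae. The groups lay far apart, a log2 change of -1.88 ± 0.13 (adjusted p = 8.61e-06). Surf6 (3R:15729387-15730590), a ribosomal RNA processing factor, had 36.4, 41.3 and 44.2 CPM on HSD, against 133, 132 and 152 CPM on LSD, 3.42-fold lower. Nop56, a core protein of the particles that methylate ribosomal RNA, had 132, 147 and 162 CPM on HSD, against 468, 433 and 499 CPM on LSD. Its partners nop5 and fibrillarin (Fib) fell by 1.35 and 1.26 on the log2 scale. The exception that rose was Non1 (CG8801), by 0.74, a gene picked out here after its values were seen. Ns2 (ns2) was not called, with means of 152 CPM on HSD and 152 CPM on LSD (SD 6.34 and 7.74, n = 3 each). The count of 26 falls was the same in every alternative run.

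In control larvae 24 of the same 28 genes fell and 1 rose, where 11.6% of all genes fell, with a median of -0.7 against -0.05 over all genes. The mlx1 response was called below that of controls in 9 of them, where 3.57% of all genes were, and above it in none. Mybbp1A had 61.8, 70.9 and 51.4 CPM in HSD and 96.8, 106 and 103 CPM in LSD control larvae, and its responses differed by -1.15 ± 0.17 (adjusted p = 0.00322). The RNA helicase pit fell by 1.68 in mlx1 larvae and by 0.72 in controls (adjusted p of the difference = 0.0105). Both genes kept that difference in every alternative run. Surf6 and NHP2, also among the 9, kept it in only 9 and 16 of 20 alternatives.

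RNA polymerases I and III, which transcribe ribosomal RNA, transfer RNA and other small RNAs, followed the nucleolar genes. Of 19 tested subunits and factors, 17 fell and none rose (median -0.9), against 11 falls in controls (median -0.52). The second largest polymerase I subunit, Polr1B (RpI135, 2L:404285-407969), had 41.4, 40.9 and 43 CPM in HSD mlx1 larvae, against 101, 103 and 109 CPM in LSD mlx1 larvae, a log2 change of -1.32 ± 0.14 (adjusted p = 4.76e-05). Tif-IA, the factor that recruits polymerase I and is known as a target of growth signalling, had 40.9, 52.2 and 54.9 CPM on HSD, against 109, 101 and 121 CPM on LSD. In both genes every HSD library was below every LSD library. The 2 members that were not called were Brf at -0.2 ± 0.11 and CG40196 at -0.2 ± 0.19.

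Genes for charging transfer RNAs and for mitochondrial ribosomes were lower as well. Of 18 tested aminoacyl-tRNA synthetases 15 fell and none rose, with a median of -0.72. Their summed level was 2350, 2330 and 2250 CPM in HSD mlx1 libraries and 4510, 3030 and 3280 CPM in LSD mlx1 libraries. LSD library A stood above the other two, and 13 synthetases were called without it. TrpRS (Aats-trp) had 49.5, 56.6 and 53.1 CPM on HSD, against 141, 90.7 and 107 CPM on LSD, 2.13-fold lower. Of 71 tested mitochondrial ribosomal proteins 53 fell and none rose (median -0.48), mRpS18C most among those named at -0.94 ± 0.14. That count was 30 without HSD library A.

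Translation factors moved less uniformly, with 7 falls and 1 rise among 28 tested (median -0.04). The shares were 25% lower and 3.57% higher, where 15.7% of all genes fell and 13.5% rose. The rise was lost without any 1 library other than LSD mlx1 library A. eIF6 (2R:19736769-19737824), which takes part in making the large ribosomal subunit, had 66.2, 79.1 and 77.8 CPM on HSD, against 188, 147 and 162 CPM on LSD (log2 change -1.15 ± 0.11, adjusted p = 2.41e-05). eIF2beta (eIF-2beta) fell by 0.82 and eIF5 by 0.63, while the poly(A)-binding protein pAbp was not called at -0.14 ± 0.09.

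Cytosolic ribosomal proteins did not share the fall. Of 81 tested, 11 rose and 1 fell, a share of 13.6% higher where 13.5% of all genes rose. The median was 0.22, and in 54 the HSD libraries all lay above the LSD libraries, against 21.5% of all genes. In controls none rose and 12 fell, with a median of -0.18, and the mlx1 response was called above that of controls in 18, where 3.32% of all genes were. The 4 of these that are named by rule, RpL26, RpL31, RpL32 and RpL36, passed that test in 7, 8, 6 and 6 of 20 alternatives. RpLP0, a stalk protein of the large subunit, had 4500, 4200 and 4260 CPM in HSD mlx1 larvae and 4270, 3790 and 3660 CPM in LSD mlx1 larvae. Those groups overlapped, and the change of 0.14 ± 0.1 was not called. RpL32 had 326, 323 and 314 CPM on HSD, against 273, 267 and 251 CPM on LSD, 1.22-fold higher. The 11 rises rested on single libraries. The count was 0 without HSD mlx1 library A, B or C, 3, 6 and 1 without LSD mlx1 library A, B and C, 4 and 5 without control HSD library A and C, and 2 without control LSD library B. By DESeq2 it was 37, and with no filter on low counts 0. RpL32 lost its call without HSD mlx1 library A, B or C or LSD mlx1 library C.

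**Figure D2:**
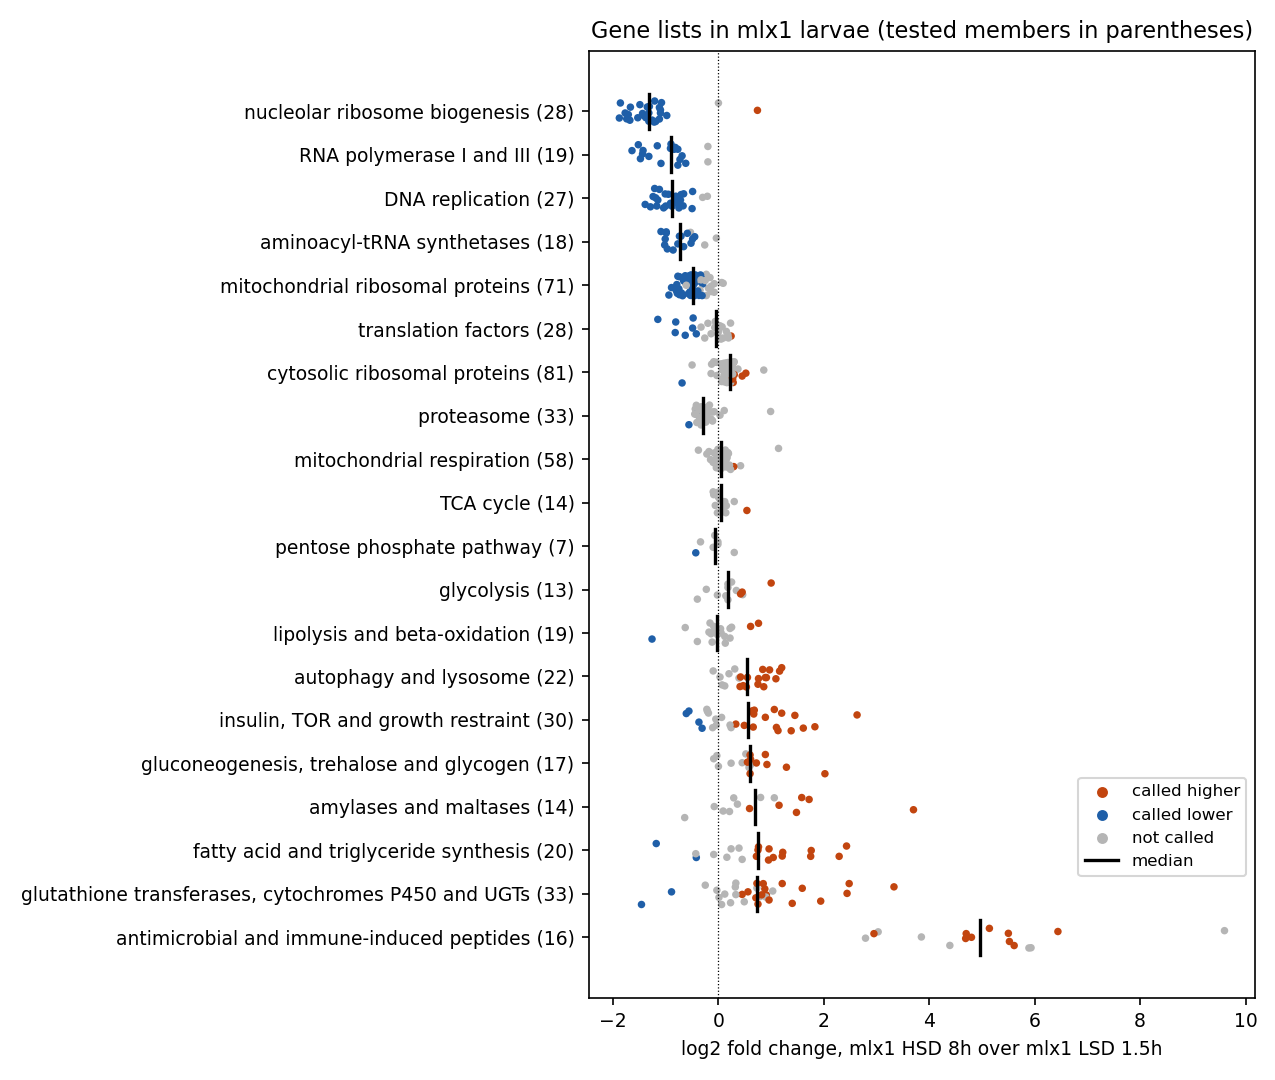
Log2 fold change of each tested member (point) of 20 gene lists in mlx1 larvae, HSD at 8 h over LSD at 1.5 h, with the list median as a bar. Nucleolar, RNA polymerase, replication and synthetase genes lie mostly left of 0, with medians of -1.32, -0.9, -0.88 and -0.72, cytosolic ribosomal proteins stand at 0.22, and the antimicrobial peptides lie farthest right at 4.97. Only the 16 of 28 listed peptides that passed the filter on low counts are shown. A peptide that passed through its HSD level alone was bound to lie right of 0. In controls the median of these peptides was 2.79.

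DNA replication genes were also lower on HSD in mlx1 larvae. Of 27 tested, 25 fell and none rose, with a median of -0.88, against 12 falls and a median of -0.51 in controls. PCNA (mus209, 2R:16149259-16150388), the sliding clamp of the replication fork, had 35.6, 43.8 and 41.8 CPM in HSD mlx1 larvae, against 110, 87.7 and 98.8 CPM in LSD mlx1 larvae, 2.45-fold lower. The licensing factor dup had 21.4, 23.4 and 28.3 CPM on HSD, against 58.6, 48 and 57.8 CPM on LSD. The helicase subunits Mcm2 and Mcm5 fell by 0.95 and 0.91 and the helicase cofactor Cdc45 (CDC45L) by 0.82. RPA1 (RpA-70), the single-strand binding protein, was not called, with 67.2, 69.2 and 70.5 CPM on HSD and 99.5, 65.4 and 74 CPM on LSD. LSD library A stood above all others and LSD library B below the HSD libraries.

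Among genes of insulin and TOR signalling, which hold both activators and restrainers of growth, more rose than fell. Of 30 tested, 17 rose and 4 fell, where 13.5% of all genes rose, with a median of 0.57. In controls 11 rose, where 11.5% of all genes did, none fell, and the median was 0.3. The count of rises was 16 or 17 in all alternatives, while that of falls was 1 without HSD library A, 0 without HSD library C and 1 without LSD library A. Thor (2L:3478434-3479612), the 4E-BP that blocks cap-dependent translation, had 1270, 1030 and 1240 CPM in HSD mlx1 larvae, against 125, 247 and 199 CPM in LSD mlx1 larvae. The groups did not overlap, and the rise was 6.2-fold. In controls Thor had 642, 669 and 748 CPM on HSD and 319, 313 and 290 CPM on LSD, so that the mlx1 level was above that of controls on HSD and below it on LSD, and the responses differed by 1.47 ± 0.27 (adjusted p = 0.0102).

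REPTOR-BP (CG18619, 2L:10264125-10265229), a transcription factor partner that acts when TOR complex 1 is low, had 34.6, 32.4 and 31.6 CPM in HSD mlx1 larvae, against 6.11, 10.2 and 11.4 CPM in LSD mlx1 larvae, a log2 change of 1.83 ± 0.19 (adjusted p = 3.12e-05). Its partner REPTOR (CG13624) rose by 1.1 and scyl, an inhibitor of TOR, by 1.06. The insulin receptor InR rose 2.6-fold and the stress-induced TOR inhibitor Sesn 2.72-fold. Rheb (3R:1394643-1396213), the small GTPase that activates TOR complex 1, had 124, 107 and 113 CPM on HSD, against 61.3, 60.3 and 64.2 CPM on LSD. It rose by 0.89 ± 0.09, while in controls it changed by 0.23 ± 0.09 without a call (adjusted p of the difference = 0.0108). Thus both an activator and several inhibitors of TOR were higher on HSD. ImpL2, which binds insulin-like peptides, had 306, 309 and 321 CPM on HSD and 277, 365 and 323 CPM on LSD and was not called, nor was the kinase S6k at -0.21 ± 0.13. The activin ligand daw rose 2.29-fold in mlx1 larvae, and its rise in controls, 1.34 on the log2 scale, did not differ by the call.

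**Figure D3:**
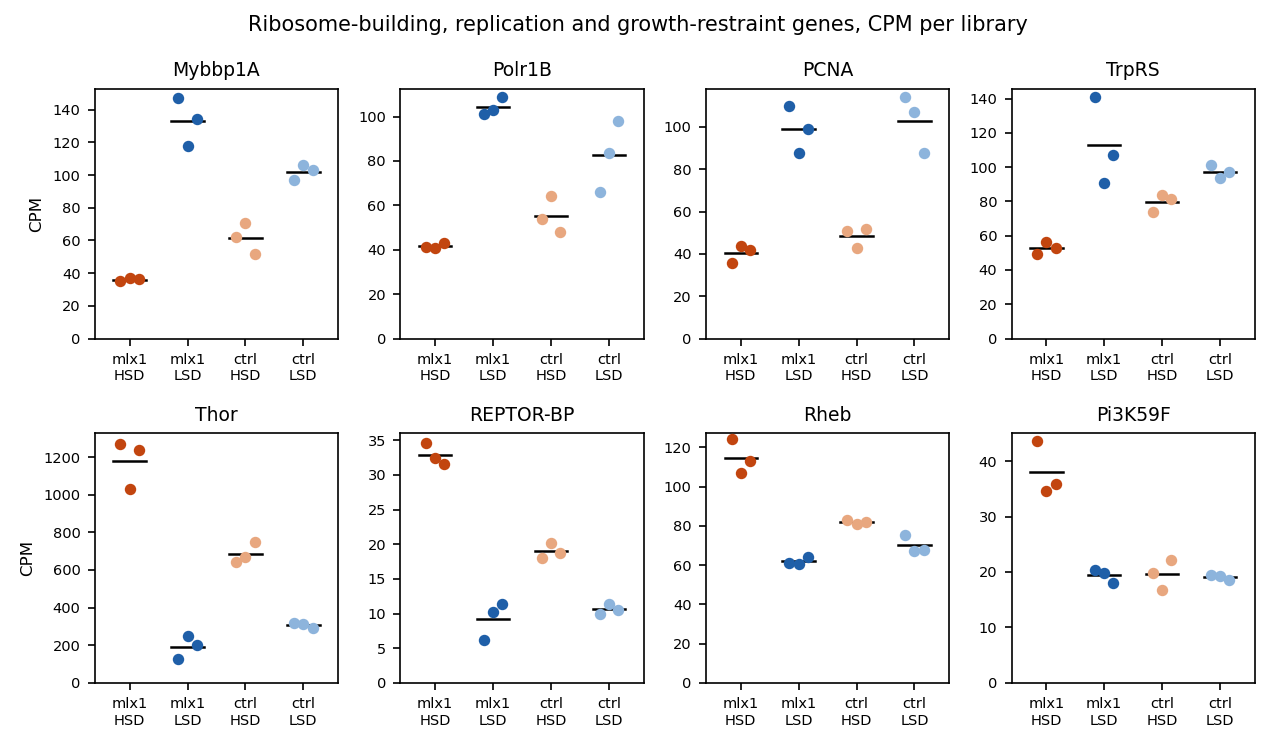
CPM of 8 genes in every library, with groups in the order HSD mlx1, LSD mlx1, HSD control and LSD control, points for libraries A, B and C and a bar for the mean. Mybbp1A, Polr1B, PCNA and TrpRS were lower in all HSD than in all LSD mlx1 libraries, and Thor, REPTOR-BP, Rheb and Pi3K59F were higher.

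Autophagy and lysosome genes were raised: 15 of 22 tested rose and none fell (median 0.54), against 6 rises in controls (median 0.27). Autophagy breaks down cell contents and is held down by TOR in fed cells. Pi3K59F (2R:19448015-19451568), the fly Vps34 lipid kinase, had 43.7, 34.7 and 35.9 CPM in HSD mlx1 larvae, against 20.3, 19.9 and 18.1 CPM in LSD mlx1 larvae, 1.96-fold higher. In controls it had 19.9, 16.8 and 22.1 CPM on HSD and 19.5, 19.2 and 18.5 CPM on LSD, and the responses differed by 0.93 ± 0.18 (adjusted p = 0.0118). The cargo receptor ref(2)P had 299, 254 and 226 CPM on HSD, against 109, 110 and 120 CPM on LSD, and Atg13 and Atg17 (CG1347) of the initiating kinase complex rose by 0.84 and 0.75. Atg1, the kinase itself, was not called, with 81.2, 68.9 and 72.9 CPM on HSD and 46.9, 71.3 and 61.6 CPM on LSD. Mitf, the factor that controls lysosome genes, was level at 0.03 ± 0.1.

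Most genes of fatty acid and triglyceride synthesis were higher on HSD without Mlx. Of 20 tested genes, 12 rose and 2 fell (median 0.76), against 12 rises and no fall in controls (median 0.89). The mlx1 response was called below that of controls in 5 of them, where 3.57% of all genes were, and above it in none. Malic enzyme (Men, 3R:8538825-8548164), which makes NADPH, had 1990, 2080 and 2030 CPM in HSD mlx1 larvae, against 709, 574 and 515 CPM in LSD mlx1 larvae, a log2 change of 1.76 ± 0.13, and rose by 1.7 in controls. Acetyl-CoA synthetase AcCoAS (3L:21263822-21273343) had 225, 251 and 227 CPM on HSD, against 47.7, 46.3 and 49.6 CPM on LSD, 4.9-fold higher in mlx1 larvae, with 9.13-fold in controls. Its responses differed by -0.9 ± 0.19 (adjusted p = 0.0176), a call lost without HSD mlx1 library A or C or control HSD library B. Acetyl-CoA carboxylase, ACC, had 1030, 1150 and 1050 CPM on HSD, against 380, 276 and 309 CPM on LSD. In controls ACC averaged 3470 CPM on HSD and 597 CPM on LSD. The fatty acid synthase FASN1 (CG3523) averaged 2510 CPM on HSD and 465 CPM on LSD in mlx1 larvae, and 9700 and 1510 CPM in controls. For neither gene was the difference between the responses called (adjusted p = 0.0545 and 0.566). For the desaturase Desat1 (desat1) the rise was 1.22 ± 0.14 in mlx1 larvae and 2.55 in controls, a difference of -1.33 (adjusted p = 0.00321). ATP citrate lyase, ATPCL, was not called in mlx1 larvae, with 246, 263 and 192 CPM on HSD and 225, 141 and 146 CPM on LSD, while controls had 1440, 1980 and 1880 CPM on HSD, against 396, 229 and 226 CPM on LSD. The 2 that fell were the acyltransferases Dgat2 (CG1942), by 1.18, and Agpat3 (CG4729), by 0.42, and that count was 1 without HSD library A, 0 without HSD library C and 1 without LSD library A or C.

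The pentose phosphate pathway, the other main source of NADPH, did not rise. None of 7 tested genes was higher and 1 was lower in mlx1 larvae (median -0.07), while 6 were higher in controls (median 1.61), and the response was called below that of controls in 6. The fall, in Rpe (CG30499), was lost without LSD mlx1 library A (adjusted p = 0.0554). Zw, its entry enzyme, had 29.5, 33 and 29.5 CPM in HSD mlx1 larvae and 27, 25.3 and 22.5 CPM in LSD mlx1 larvae, a change of 0.3 ± 0.15 that was not called. Transaldolase (Tal) was level in mlx1 larvae at -0.01 ± 0.15 and rose by 1.61 in controls (adjusted p of the difference = 0.00158). Glycolysis was in between, with 3 of 13 genes higher (median 0.18) against 8 in controls (median 0.55). The mlx1 share was 23.1%, where 13.5% of all genes rose. Pfrx, which makes the activator of phosphofructokinase, rose 2-fold in mlx1 larvae, with 8.03, 8.05 and 6.5 CPM on HSD, against 3.83, 3.89 and 3.56 CPM on LSD. The other 2 were Tpi at 0.45 and Pgi at 0.42, and both lost their calls without HSD library A, HSD library C or LSD library C, Pgi also without HSD library B, LSD library B or control HSD library A or B. Pfrx kept its call throughout.

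Genes of gluconeogenesis, trehalose and glycogen rose in 9 of 17 cases with no fall (median 0.6), against 13 rises in controls (median 1.01). Pepck2 (CG10924, 2R:14414935-14423254), a phosphoenolpyruvate carboxykinase gene, had 169, 198 and 166 CPM in HSD mlx1 larvae, against 54.8, 35.5 and 40.8 CPM in LSD mlx1 larvae, 4.06-fold higher. In controls it had 12.7, 21.8 and 19.7 CPM on HSD and 12.2, 6.75 and 6.51 CPM on LSD, so both mlx1 groups lay above both control groups. Its responses did not differ by the call (0.93 ± 0.37, adjusted p = 0.158). Tps1, which makes the blood sugar trehalose, had 222, 223 and 198 CPM in HSD mlx1 larvae, against 122, 67.9 and 73 CPM in LSD mlx1 larvae, and rose by 1.29 in mlx1 larvae and 1.22 in controls. The fructose bisphosphatase fbp rose 1.89-fold. A trehalose phosphate phosphatase gene, CG5171, rose by 0.89 ± 0.13 in mlx1 larvae and by 2.12 in controls, a difference called at an adjusted p of 0.00317. Glyp (GlyP), glycogen phosphorylase, was not called at 0.52 ± 0.19, but was called in 8 alternatives: by DESeq2 (adjusted p = 0.022), with RLE or upper-quartile factors (0.0463 and 0.0453), with the 5 CPM filter (0.0449), the cuticle covariate (0.0194) or the replicate block (0.0248), and without LSD mlx1 library A (0.00593) or control LSD library A (0.0311).

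Fat breakdown genes changed little as a list, with 2 of 19 higher and 1 lower (median -0.02). These were shares of 10.5% and 5.26%, where 13.5% of all genes rose and 15.7% fell. The fall, in Lip4, was lost without HSD library A, B or C or LSD library A or B, and the triglyceride lipase brummer responded in opposite directions in the 2 genotypes. bmm (3L:14769596-14779512) had 197, 155 and 161 CPM in HSD mlx1 larvae, against 118, 110 and 108 CPM in LSD mlx1 larvae, and rose by 0.61 ± 0.15 (adjusted p = 0.00911). In controls it fell by 1.02 (adjusted p = 0.000748), with 35.2, 38.8 and 28.7 CPM on HSD and 57.5, 70.2 and 81.1 CPM on LSD. The difference was 1.63 ± 0.21 (adjusted p = 0.00166), and every mlx1 library exceeded every control library. The hormone-sensitive lipase Hsl rose 1.7-fold in mlx1 larvae. Mcad (CG12262), a dehydrogenase of mitochondrial beta-oxidation, was not called in mlx1 larvae, where its groups overlapped and its change was -0.02 ± 0.16, but fell by 1.43 in controls (adjusted p of the difference = 0.00556). AkhR (GRHR), the receptor of the fat-mobilizing hormone AKH, rose in both genotypes, by 1.61 in mlx1 larvae and 1.87 in controls.

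Of 14 serine, glycine and one-carbon genes 4 rose and 4 fell, 28.6% each where 13.5% of all genes rose and 15.7% fell. Of those that rose, the serine synthesis phosphatase aay (3L:9416353-9417881) had 194, 209 and 212 CPM in HSD mlx1 larvae, against 40.6, 63.2 and 49.4 CPM in LSD mlx1 larvae, 4.01-fold higher, and the dehydrogenase gene CG6287 had 154, 178 and 164 CPM, against 81.6, 42.8 and 48.9 CPM. CG3999 (3R:6077240-6080990), the decarboxylase of the glycine cleavage system, had 66.6, 77.5 and 72.7 CPM on HSD, against 266, 157 and 197 CPM on LSD, a change of -1.51 ± 0.17 (adjusted p = 6.01e-05). In controls CG3999 had 161, 164 and 174 CPM on HSD and 186, 142 and 157 CPM on LSD and was not called, and the responses differed by -1.56 ± 0.24 (adjusted p = 0.00339).

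Asparagine synthetase, AsnS (asparagine-synthetase, 3L:21166218-21168073), was among the 12 largest falls, with 32.1, 43.3 and 36.1 CPM in HSD mlx1 larvae, against 115, 191 and 163 CPM in LSD mlx1 larvae. The groups did not overlap, as the rule for those 12 required, and the fall was 4.2-fold. Controls had 77, 109 and 87.5 CPM on HSD and 73.7, 129 and 116 CPM on LSD, with no call and a difference of -1.85 ± 0.33 between the responses (adjusted p = 0.00952). Of 22 genes of other amino acid metabolism, 8 rose and 4 fell, AsnS among them. These were shares of 36.4% and 18.2%, where 13.5% of all genes rose and 15.7% fell. The counts were 5 and 2 without HSD library A, and the rises numbered 5 without HSD library C and 4 without LSD library C. Henna (Hn, 3L:7753553-7756266), which turns phenylalanine into tyrosine, had 321, 258 and 365 CPM on HSD, against 146, 142 and 137 CPM on LSD, 2.23-fold higher, and was not called in controls at -0.26 (adjusted p of the difference = 0.00752). P5CS (CG7470), of proline synthesis, rose 2.78-fold in mlx1 larvae.

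Purine synthesis held a single large rise. Prat2 (3L:6905099-6907976), an amidotransferase of the first committed step, had 21.6, 26.7 and 20.5 CPM in HSD mlx1 larvae, against 2.77, 2.33 and 1.68 CPM in LSD mlx1 larvae, a change of 3.33 ± 0.27 (adjusted p = 9.56e-06). Controls had 6.41, 7.11 and 10.9 CPM on HSD and 7.48, 4.67 and 6.6 CPM on LSD, which overlapped, and the responses differed by 2.95 ± 0.36 (adjusted p = 0.00113). The mlx1 levels thus lay above those of controls on HSD and below them on LSD. Of the other tested genes of the list 1, Adss (CG17273), rose by 0.66, and 4 fell, among them CG11089 by 1.03 and the IMP dehydrogenase ras by 0.89.

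Most of the 12 largest rises were of immune genes. Insects answer infection with secreted peptides made largely in the fat body, under the Toll and Imd pathways. Of 28 listed antimicrobial and immune-induced peptides, 16 passed the filter on low counts, 9 were below it and 3 had no count. Of the 16, 9 were called higher and none lower (median 4.97). A member that passed the filter through its HSD level alone was bound to be higher there, called or not. AttA was not called, with 109, 11.1 and 4.19 CPM on HSD and 1.63, 3.45 and 10.2 CPM on LSD, which overlapped. Dpt was not called either (adjusted p = 0.0669), with 75.1, 21.2 and 0.771 CPM on HSD and at most 0.0989 CPM on LSD. It was called by DESeq2, with the cuticle covariate, and without control HSD library B or C. Dso1 (IM4) had 322, 161 and 42.1 CPM in HSD mlx1 larvae, against 3.75, 1.99 and 5.93 CPM in LSD mlx1 larvae, and Metchnikowin (Mtk) had 62.3, 36.3 and 8.7 CPM, against 0.896, 1.12 and 0.989 CPM. Bbd (CG18067), an immune-induced peptide outside the list, had 259, 107 and 18.5 CPM on HSD, against 3.34, 1.9 and 7.81 CPM on LSD, and Drosomycin (Drs) had 96.1, 46.4 and 20.4 CPM, against 5.13, 8.2 and 7.71 CPM. For Dso1, Mtk, Bbd and Drs the diets did not overlap, which the rule for the largest rises required of all but Drs. Among their HSD libraries A was the highest and C the lowest.

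The same order of libraries held for the list's summed level, 1520, 568 and 134 CPM in HSD mlx1 libraries, against 21, 21.2 and 52.1 CPM in LSD mlx1 libraries. AttC (2R:9281210-9282172), an attacin, had 301, 112 and 19.2 CPM on HSD, against 3.26, 1.38 and 4.25 CPM on LSD, and its rise of 5.61 ± 1.73 had an adjusted p of 0.0409. That call was lost without HSD mlx1 library A or B (0.112 and 0.0666), LSD mlx1 library A, B or C (0.111, 0.105 and 0.101) or control LSD library A, B or C (0.0558, 0.0608 and 0.0586), with the replicate block (0.0565) and with no filter on low counts (0.0591). Over the list, 4 peptides were called without LSD mlx1 library A, and 5 when only the 6 mlx1 libraries were fitted. Among genes outside the list, GNBP-like3 (CG13422), BomS6 (CG15068) and the thioester protein Tep1 were among the 12 largest rises, with log2 changes of 6, 4 and 4.01. The GNBP-like3 call was lost without HSD library A (0.0506), LSD library A (0.0655) and LSD library B (0.0564). In the fit of the 6 mlx1 libraries Tep1 and Bbd lost their calls (0.0845 and 0.0557). Controls had AttC at 2.02, 3.3 and 109 CPM on HSD and 3.69, 1.59 and 1.55 CPM on LSD, high in library C alone. Of the 16 peptides tested, 1 was called higher in controls and none lower (median 2.79), where 11.5% of all genes rose. It was Dso1, with 76.9, 79.6 and 65.5 CPM in HSD and 1.13, 3.67 and 10.7 CPM in LSD controls. BomS6 was also called higher in controls, by 2.07. No peptide of the list had a called difference between the responses. The Bom, Dso and Att genes have near copies, between which reads may have been split or lost.

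Pathway components changed less. Of 28 Toll and Imd genes 8 rose and 2 fell (median 0.22), shares of 28.6% and 7.14% where 13.5% of all genes rose and 15.7% fell. The rises numbered 5 without HSD library A or without LSD library C. The falls numbered 1 without HSD library A or C or LSD library A or C. The Imd factor Relish (Rel, 3R:4869905-4873699) had 372, 243 and 241 CPM in HSD mlx1 larvae, against 91.6, 117 and 125 CPM in LSD mlx1 larvae, 2.57-fold higher. The receptor-like PGRP-LF had 16.8, 12.6 and 13.3 CPM on HSD, against 2.2, 4.23 and 5.64 CPM on LSD, and the glucan sensor GNBP3 rose 1.81-fold. Their HSD libraries were closer together than those of the peptides. The amidase PGRP-LB, which dampens Imd signalling, fell 1.77-fold, with 34.8, 32 and 27.8 CPM on HSD, against 59.1, 53.3 and 55.1 CPM on LSD. Of 10 hemocyte markers, 1 was called higher (eater, 0.91) and 1 lower (Col4a1, listed as Cg25C, at -0.52). These were shares of 10% each, where 13.5% of all genes rose and 15.7% fell. The summed level of the markers was 2730, 3490 and 2840 CPM on HSD and 4690, 3640 and 4030 CPM on LSD. The eater call was lost without HSD library B or C or LSD library A or C, and that of Col4a1 without HSD library A or C. The part of blood cells in the immune rises was not tested.

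**Figure D4:**
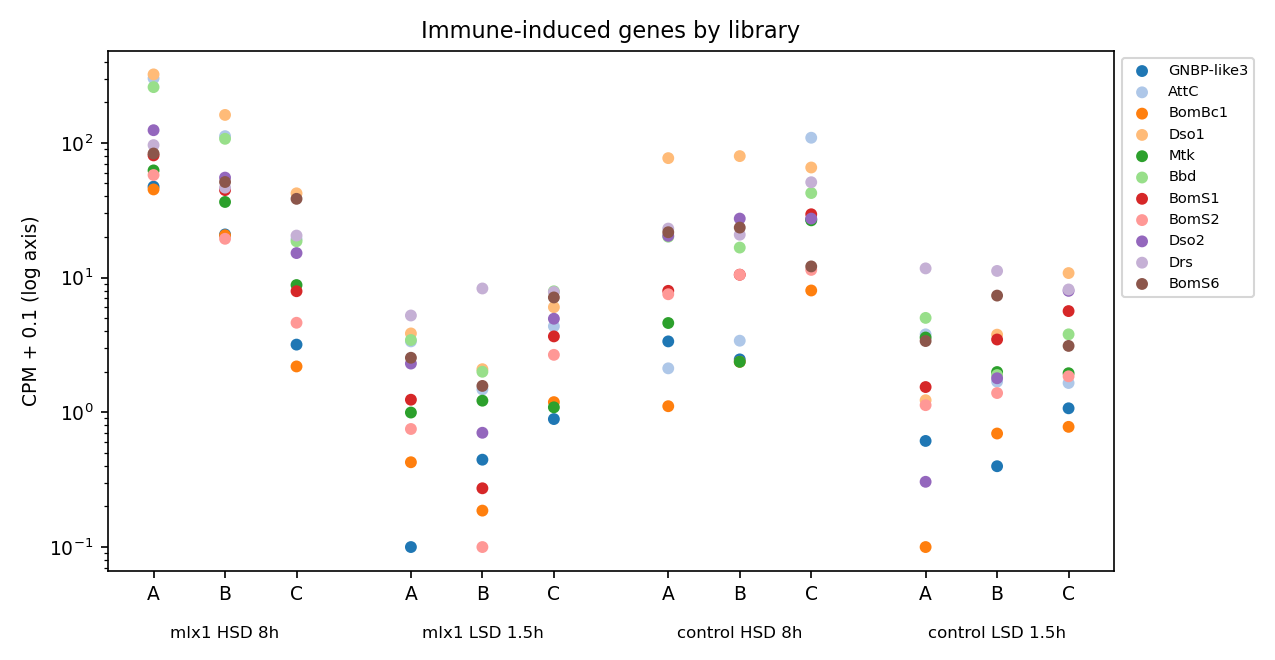
CPM plus 0.1, on a log axis, of 11 immune-induced genes in the 12 libraries, with HSD mlx1 on the left. In HSD mlx1 larvae library A was the highest and C the lowest for every gene shown. All LSD mlx1 libraries lay below all HSD mlx1 libraries, which the rule for the largest rises required of every gene shown but Drs.

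Detoxification genes rose in 17 of 33 cases and fell in 2 (median 0.73), with 20 rises and 1 fall in controls (median 0.88). The mlx1 shares were 51.5% higher and 6.06% lower, where 13.5% of all genes rose and 15.7% fell. The count of rises was 10 without HSD library B. The cytochrome P450 gene Cyp6w1 (2R:2061189-2062936) had 288, 226 and 309 CPM in HSD mlx1 larvae, against 26.2, 27.7 and 27.8 CPM in LSD mlx1 larvae, 10.1-fold higher. Cyp6a8 had 149, 182 and 161 CPM on HSD, against 31.4, 31.1 and 25.3 CPM on LSD, a change of 2.48 ± 0.36 (adjusted p = 0.000604), and in controls it had at most 11.2 CPM in any library. Neighbouring P450 genes went apart. Cyp28d1 was not called in mlx1 larvae at 0.32 ± 0.14 but fell by 1.67 in controls, and Cyp28d2 fell by 0.89 in mlx1 larvae but rose by 1.48 in controls, with differences called at adjusted p = 0.00032 and 0.000933. Glutathione transferase genes of the epsilon cluster are similar in sequence, so their counts are less certain.

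Several chaperones fell. Hsp83 (3L:3192969-3197059), the fly Hsp90, had 434, 668 and 649 CPM in HSD mlx1 larvae, against 2460, 2170 and 3270 CPM in LSD mlx1 larvae, 4.51-fold lower, with 1550, 2210 and 1480 CPM in HSD and 2220, 1990 and 1920 CPM in LSD controls. The response differed from that of controls by -1.95 ± 0.29 (adjusted p = 0.00324). Hsp68 had 5.31, 9.88 and 10.5 CPM in HSD mlx1 larvae, against 32.6, 30.7 and 45.9 CPM in LSD mlx1 larvae. In all 3 of 8 heat shock proteins fell and none rose, a share of 37.5% lower where 15.7% of all genes fell. Only 1 fell when exons that overlap another gene were left out. The only exon entry of Hsp68 and 1 of the 3 entries of Hsp83 overlap another gene, and reads of such entries cannot be told apart. Neither Hsp68 nor Hsp83 was tested in that run. The mitochondrial chaperone Hsp60A (Hsp60) had 685, 844 and 812 CPM on HSD, against 2130, 1390 and 1540 CPM on LSD, and the endoplasmic reticulum chaperone Hsc70-3 had 1020, 1230 and 967 CPM, against 2880, 1270 and 1700 CPM. Hsc70-3 was not called (adjusted p = 0.0615), its LSD library A standing apart, but was called without LSD mlx1 library B (0.0195) or control LSD library A (0.0292). It was also called by DESeq2 (0.0137), with the 5 CPM filter (0.0366), with the cuticle covariate (0.00145) and without overlapping exons (0.039). The pseudokinase trbl, often induced with stress, rose 2.35-fold, with 65, 60.9 and 55.2 CPM on HSD, against 24, 28.5 and 24.5 CPM on LSD. Of 17 genes of the endoplasmic reticulum stress and amino acid response list, 2 rose and 5 fell. These were shares of 11.8% and 29.4%, where 13.5% of all genes rose and 15.7% fell. The falls numbered 3 without HSD library A or C and 8 without LSD mlx1 library B or control LSD library A. The rises numbered 4 without LSD mlx1 library A.

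Some digestive genes rose. Of 14 amylases and maltases 6 were higher (median 0.7), all of them maltases, which split sugars in the gut. Mal-A7 (2R:4356943-4359165) had 11.7, 5.76 and 3.75 CPM in HSD mlx1 larvae, against 0.489, 0.345 and 0.791 CPM in LSD mlx1 larvae, 13-fold higher, and in controls it had 19.9, 24.9 and 41.6 CPM on HSD, against 3.9, 4.17 and 2.23 CPM on LSD. Mal-A8 rose 2.99-fold and Mal-B2 3.3-fold in mlx1 larvae. The amylase Amy-p had 432, 472 and 380 CPM on HSD and 414, 307 and 387 CPM on LSD in mlx1 larvae, without a call, and fell by 3.28 in controls. Its responses did not differ by the call (3.49 ± 0.96, adjusted p = 0.066). Amy-p has a near-identical copy, so its counts are uncertain. Of 26 digestive proteases 9 rose and none fell (median 0.44), with Jon66Cii at 76, 92.3 and 72.8 CPM on HSD, against 22.3, 8.03 and 12.4 CPM on LSD. Of 11 midgut markers 4 rose and 1 fell, shares of 36.4% and 9.09% where 13.5% of all genes rose and 15.7% fell. The fall was lost without HSD or LSD mlx1 library C. The summed level of the midgut markers was 3810, 4390 and 3260 CPM on HSD, against 2510, 1870 and 2290 CPM on LSD. The share of midgut tissue in these rises was not tested.

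Markers of other tissues gave the following counts. Of 12 muscle markers 1 rose and 1 fell, 8.33% each where 13.5% of all genes rose and 15.7% fell. Of 10 neuronal and 6 hindgut and Malpighian tubule markers none was called, and 1 of 8 testis markers passed the filter. The muscle rise was lost without HSD library A or C, and 4 muscle markers rose without control LSD library A. Without LSD mlx1 library A, 1 neuronal marker was called lower. Of 10 fat body markers 5 passed the filter, 4 were below it and 1 had no count. Of the 5, 3 fell and 1 rose. The fall of Lsp1gamma, with means of 4.21 CPM on HSD and 7.76 CPM on LSD, was lost in 8 alternatives. The lipoprotein apolpp (Rfabg), made by the fat body, had 3190, 4170 and 2960 CPM in HSD mlx1 larvae, against 9970, 5210 and 7380 CPM in LSD mlx1 larvae, 2.19-fold lower. In controls apolpp was not called at 0.53 ± 0.26. Its responses differed by -1.65 ± 0.37 (adjusted p = 0.025), past the threshold in 13 of 20 alternatives. Neuronal markers summed to 809, 900 and 889 CPM on HSD and 572, 1030 and 974 CPM on LSD, low in LSD library A. Cuticle genes, 106 tested, gave 9 falls and 3 rises (median -1.13), shares of 8.49% and 2.83% where 15.7% of all genes fell and 13.5% rose, with Lcp65Af at 236, 248 and 342 CPM on HSD, against 725, 2500 and 1550 CPM on LSD. The count of cuticle falls was 4, 5 and 3 without HSD library A, B and C, and 16, 4 and 4 without LSD library A, B and C, and that of rises 5 without LSD library B. The part of moult timing in the other results was not tested, and counts with the cuticle level in the model are given with the alternatives.

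Transcription factors that answer nutrients were mixed, with 5 of 17 higher and 1 lower (median 0.22). These were shares of 29.4% and 5.88%, where 13.5% of all genes rose and 15.7% fell. sug, a zinc finger factor induced by sugar, had 37.6, 34.9 and 35.3 CPM in HSD mlx1 larvae, against 3.99, 4.4 and 4.55 CPM in LSD mlx1 larvae. Mondo itself (Mio) had 185, 186 and 171 CPM on HSD, against 106, 120 and 123 CPM on LSD, 1.55-fold higher. The co-activator srl (Spargel, 3R:248205-255057), the fly PGC-1, which drives mitochondrial genes, had 50, 58.5 and 58.2 CPM on HSD, against 134, 165 and 173 CPM on LSD, 2.83-fold lower. Myc (dm) was not called, with 349, 359 and 402 CPM on HSD and 305, 573 and 630 CPM on LSD, but it was called lower without LSD library A (adjusted p = 0.0088). The count of rises was 3 without HSD library A or C and without LSD library B or C, and that of falls 3 without LSD library A.

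The genes with the smallest interaction p-values were taken by rule, 6 among those that rose and 6 among those that fell in mlx1 larvae. CG33307 (2L:13839262-13841520) had 81.7, 95.6 and 93.3 CPM in HSD mlx1 larvae, against 26, 32 and 36.5 CPM in LSD mlx1 larvae, while controls had 28.5, 24.6 and 34 CPM on HSD and 61.4, 63.5 and 62.2 CPM on LSD. Its rise of 1.52 ± 0.14 in mlx1 larvae thus met a fall of 1.1 in controls (adjusted p of the difference = 7.29e-05). Agxt (Spat, X:6422981-6424759), which transfers amino groups between alanine and glyoxylate, did the same, with 117, 124 and 136 CPM in HSD and 51.2, 48.5 and 43.5 CPM in LSD mlx1 larvae and 31, 38.2 and 39 CPM in HSD and 57.2, 53.5 and 62.6 CPM in LSD controls. CG42369 and CG18563 also rose in mlx1 larvae, by 0.89 and 1.15, and fell in controls, by 0.78 and 1.35.

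The other 2 genes of the first set rose less in mlx1 larvae than in controls. CG1774 (3R:27418525-27420441), a predicted acyl-CoA thioesterase, had 39.4, 40.5 and 40.5 CPM in HSD mlx1 larvae, against 12, 11.9 and 13.1 CPM in LSD mlx1 larvae, 3.26-fold higher, and 772, 838 and 763 CPM in HSD, against 27.2, 41.5 and 46.9 CPM in LSD controls, 20.5-fold higher. CG32444, a predicted aldose epimerase, rose 1.78-fold in mlx1 larvae and 8.28-fold in controls.

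Among the genes that fell, CG12288 (2L:16900535-16902218) had 19.8, 17.9 and 19.2 CPM in HSD mlx1 larvae, against 110, 87.7 and 120 CPM in LSD mlx1 larvae, 5.58-fold lower, and fell 2.06-fold in controls. r-l (3R:16896279-16899041), which makes uridine monophosphate, had 51.1, 56.8 and 63.6 CPM on HSD, against 171, 145 and 161 CPM on LSD, and was not called in controls at -0.2 (adjusted p = 0.204), with 147, 139 and 123 CPM on HSD and 154, 152 and 163 CPM on LSD. Alp4 (Aph-4), an alkaline phosphatase, had 20.9, 21.9 and 19.1 CPM in HSD and 51.4, 36.1 and 41.3 CPM in LSD mlx1 larvae, and rose 2.6-fold in controls. CG14852 and Sardh (CG6385), a sarcosine dehydrogenase, fell in both genotypes, by 1.14 and 0.62 in mlx1 larvae and by 3.15 and 2.53 in controls. The only exon entry of CG14852 overlaps another gene, and reads of such entries cannot be told apart. CG3106 (X:9553129-9556791), one of the 12 largest falls, had 44.5, 45.8 and 31.4 CPM in HSD, against 271, 110 and 195 CPM in LSD mlx1 larvae, and did not change by the call in controls at 0.32 (adjusted p of the difference = 0.0104).

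**Figure D5:**
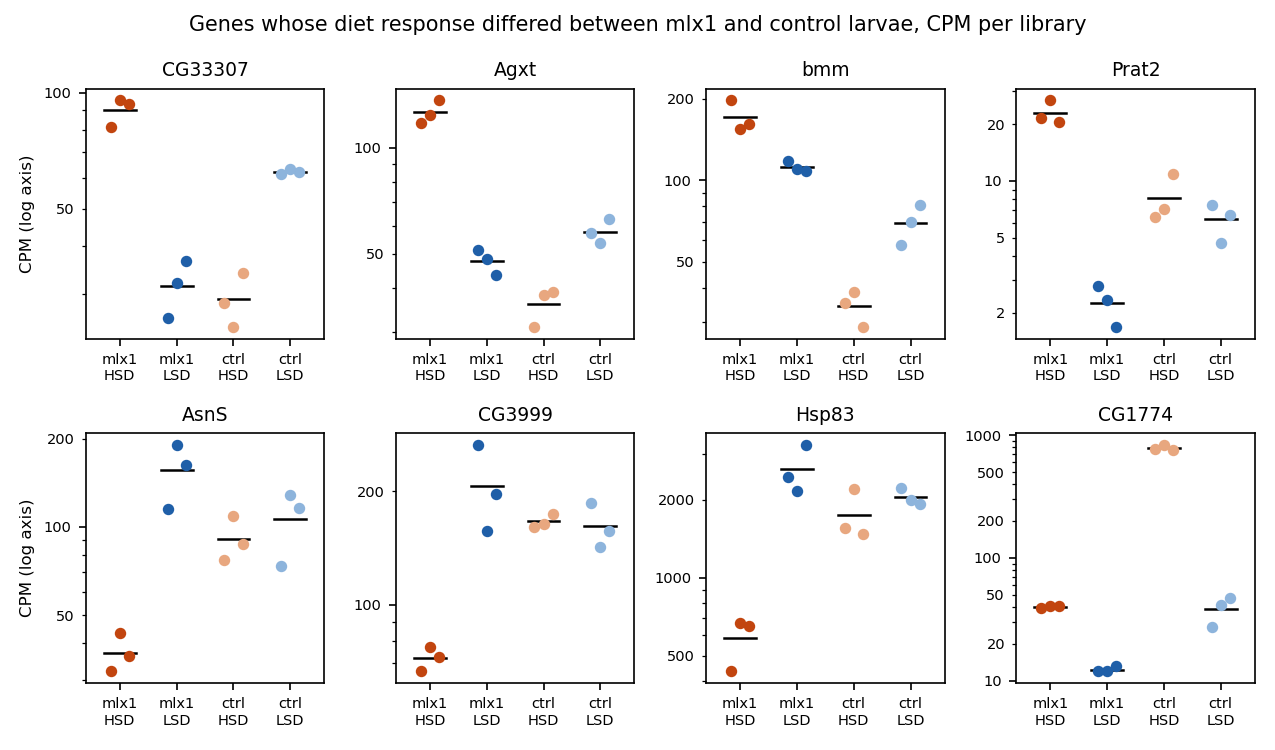
CPM on a log axis of 8 genes with a called difference between the mlx1 and control responses, with groups in the order HSD mlx1, LSD mlx1, HSD control and LSD control, points for libraries and a bar for the mean. CG33307, Agxt and bmm were higher on HSD in mlx1 larvae and lower on HSD in controls, Prat2 rose and AsnS, CG3999 and Hsp83 fell in mlx1 larvae only by the call, and CG1774 rose in both, 3.26-fold and 20.5-fold.

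Few calls were made in lists of several large machines, where 13.5% of all genes tested rose and 15.7% fell. Of 58 tested genes of mitochondrial respiration 1 rose (ND-18, listed as CG12203, by 0.29), with a median of 0.04. Of 14 genes of the TCA cycle 1 rose (Ogdh, listed as Nc73EF, by 0.54), with a median of 0.05, and citrate synthase (kdn) had 2100, 2270 and 2110 CPM in HSD and 2630, 1860 and 2250 CPM in LSD mlx1 larvae. Both counts were 0 without HSD library A or B or LSD library B or C and 3 without LSD library A, and that of respiration was also 0 without HSD library C. Of 21 vacuolar proton pump subunits Vha36-3 rose by 0.47, a call lost without most single libraries, and Vha100-4 fell by 0.52, a call lost without HSD or LSD mlx1 library C.

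Of 33 tested proteasome subunits, 2 fell (Rpn9 and Rpn12, by 0.56 and 0.42) and none rose, a share of 6.06% lower where 15.7% of all genes fell. The median was -0.3, and in 20 the HSD libraries all lay below the LSD libraries, where 23.2% of all genes did. The count called depended on the libraries. It was 7, 5 and 0 without LSD mlx1 library B, C and A, 0, 1 and 0 without HSD mlx1 library A, B and C, 1, 1 and 4 without control HSD library A, B and C, and 1 and 0 without control LSD library B and C. With the cuticle level in the model it was 19. Their summed level was 3050, 3070 and 2990 CPM in HSD mlx1 libraries and 4520, 3350 and 3270 CPM in LSD mlx1 libraries, of which A stood apart.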

How the data were processed

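RNA from whole larvae was sequenced in 12 libraries. The authors deposited counts of reads per exon entry, and per the submitters' processing notes BWA 0.5.9, SAMtools and HTSeq 0.6.1 were used; no source used here gives their settings, the strand setting or the genome build. The 82004 entries with a gene name were summed to 16413 gene names, and 42 entries without one, at most 0.0148% of a library, were left out. Of the names, 11755 were current symbols, 4488 older ones matched through the Release 6 annotation and 170 unmatched. Of the entries, 9.81% overlapped another gene, and their reads cannot be told apart. Counts were filtered with filterByExpr, normalized by TMM and fitted over the 4 groups with edgeR 4.0.16 (robust quasi-likelihood, R 4.3.3; limma 3.58.1 installed beside it; common dispersion 0.0619; 8 residual degrees of freedom), with 10045 genes tested and Benjamini-Hochberg adjustment over all of them. The difference between genotypes was an interaction term. On simulated data for the mlx1 comparison (9970 genes) the fit recovered 54 of 100 genes changed by 1 and 85 of 99 changed by 2 on the log2 scale, with 3 false calls. DESeq2 1.42.0 was an alternative, as were other scaling factors and filters, a fit of the 6 mlx1 libraries, a replicate block, the cuticle level as a covariate, entries free of overlap, and leaving out each library.

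The comparison and the 40 gene lists were chosen with earlier results of these data known. Genes named are the 12 largest rises and falls among called genes whose libraries did not overlap and whose higher group averaged 10 CPM or more, up to 5 called and 2 uncalled members per list, the 6 lowest interaction p-values in each direction, and genes chosen by name. REPTOR, scyl, Non1, Dgat2 and Agpat3 fell outside this rule and were named after their values were seen. The search of promoters for motifs was not run.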

Additional observations from a re-analysis of the deposited data

Results flagged for a closer look

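The response to diet differed between mlx1 and control larvae, by the interaction test, for 36 named genes that passed the threshold in all of the 19 or 20 alternatives in which each was tested (highest adjusted p 0.0389, edgeR's quasi-likelihood test with Benjamini-Hochberg adjustment). Each value here is the mlx1 log2 response minus the control log2 response, and no explanation was tested. The mlx1 response was the higher of the pair in 15 genes.

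Among these 15, the difference was 2.95 for Prat2 of purine synthesis, 2.62 for CG33307, 2.5 for CG18563 and 1.67 for CG42369. In amino acid metabolism it was 2.08 for Agxt (Spat), 1.91 for Sardh (CG6385), 1.41 for Hn and 0.84 for Ahcy (Ahcy13). In fat breakdown it was 1.63 for bmm and 1.41 for Mcad (CG12262). In growth control and autophagy it was 1.47 for Thor, 0.93 for Pi3K59F and 0.66 for Rheb. It was 2.02 for CG14852 and 2 for the P450 gene Cyp28d1.

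In the other 21 genes the mlx1 response was the lower. In sugar and lipid metabolism the difference was -2.66 for CG1774, -2.46 for Zw, -2.22 for CG32444, -2.18 for ATPCL, -1.99 for Pgd, -1.72 for CG8036, -1.62 for Tal, -1.33 for Desat1 (desat1), -1.24 for CG5171 and -1.06 for Pgi. In amino acid and nucleotide metabolism it was -1.85 for AsnS (asparagine-synthetase), -1.56 for CG3999 and -1.28 for r-l. In the nucleolus it was -1.15 for Mybbp1A (l(1)1Bi) and -0.95 for pit. It was -2.56 for CG3106, -2.44 for Alp4 (Aph-4), -2.36 for Cyp28d2, -1.95 for the chaperone Hsp83, -1.44 for CG12288 and -1.21 for Vha100-4.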

How the results depend on the processing

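The count of 2941 genes called in mlx1 larvae stayed within 1.5 times its value in all alternatives run. It was 3135 by DESeq2, 4132 with the cuticle level as a covariate and 2434 when only the 6 mlx1 libraries were fitted. It ranged from 2025 (without HSD mlx1 library A) to 3090 (without control LSD library A) when 1 library was left out. The count of 692 genes whose response differed between genotypes was 1202 by DESeq2 and 1373 with the cuticle covariate, and ranged from 271 to 1021 when 1 library was left out; the cause was not tested. With a replicate block by library letter the counts were 2936 and 534. Same-letter libraries of the 2 diets had correlations of their deviations of 0.03, 0.057 and -0.258, so the letters gave no sign of pairing the samples. Pairs of unlike letter ranged from -0.36 (HSD A with LSD B) to 0.5 (HSD A with LSD C), so some libraries varied together across the diets. Deviations from a mean of 3 libraries sum to 0, so these values are not independent. No named gene changed direction while called, and 132 of 170 named called genes kept their call in all alternatives. The search of promoters for motifs was not run. Depth limits genes of few counts, such as 9 of the 28 immune peptides, and intervals between libraries cover 3 per group.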

Other observations

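A group of salivary gland genes stood among the largest rises. The glue-like gene ng3 (X:3135524-3136117) had 563, 436 and 580 CPM in HSD mlx1 larvae, against 42.7, 21 and 24.8 CPM in LSD mlx1 larvae, a log2 change of 4.16 ± 0.69 (edgeR's quasi-likelihood test, adjusted p = 0.00211). Its neighbours ng1 and ng2, which are near copies of each other, rose by 3.61 and 3.57, and ng3 rose by 2.69 in controls. Of 10 salivary gland markers, 4 passed the filter on low counts, and 3 of these were called.

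Among the largest falls outside the lists, CG10474 had 8.68, 6.03 and 10.2 CPM in HSD mlx1 larvae, against 85, 131 and 125 CPM in LSD mlx1 larvae, and CG15369 had 4.01, 4.48 and 4.63 CPM, against 25.7, 73.9 and 47.7 CPM. The odorant-binding protein gene Obp99a had 2.93, 4.57 and 3.86 CPM on HSD, against 20.8, 13.1 and 12 CPM on LSD, and fell by 2.01 in mlx1 larvae and by 2.09 in controls.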
